A study of Mus musculus with 28 samples.

Results

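Interferon-stimulated genes are the genes that a cell switches on when an interferon binds its receptors. The set described here held 39 such genes, chosen by symbol, and all 39 were among the 20416 genes listed in each of 3 tables of liver messenger RNA sequencing. By role, 11 were the oligoadenylate synthetase (Oas), Ifit and Mx genes classically assigned to type I interferon, 8 were GTPases classically assigned to interferon gamma (Gbp2, Gbp3, Gbp6, Gbp7, Igtp, Irgm1, Irgm2 and Iigp1), 4 were transcription factors, 3 were sensors of viral RNA, 2 were the ubiquitin-like protein Isg15 and its protease Usp18, and 11 were other effectors. The study induced non-alcoholic steatohepatitis, a fatty liver with inflammation, in male C57BL/6 mice by a pair of routes. In the first, 4 livers came from mice on a methionine- and choline-deficient diet (MCD) and 4 from mice on a matched low-fat control diet (CD). The sample titles give 4 weeks for both diets, while the label for study duration says 5 weeks. In the second, the STAM model, mice had received streptozotocin, which kills insulin-producing beta cells, on postnatal day 2 and a high-fat diet from week 4 on; 5 STAM livers and 5 livers from mice on control diet were collected at 4 weeks of age, and 5 and 5 at 10 weeks. How long the 4-week STAM mice had eaten the high-fat diet, and whether control mice had received a vehicle injection, is not stated in the labels. Nothing in the labels says that the replicates of a group were separate animals, so the p-values measure the spread between these samples only.

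Type I interferons act through Ifnar1 and Ifnar2, interferon gamma through Ifngr1 and Ifngr2, and interferon lambda through Ifnlr1 and Il10rb. The receptors signal through the kinases Jak1, Jak2 and Tyk2. Complexes that hold Stat2 and Irf9 bind interferon-stimulated response elements, and interferon gamma acts through gamma-activated sites. The division into type I and gamma-induced genes is one of emphasis, since most of these genes respond to several interferons. In the liver, hepatocytes, endothelial cells and macrophages all carry interferon receptors.

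The 28 libraries held 16.2 to 25.9 M reads counted in genes. Values are log2 CPM, the logarithm of reads relative to library size, scaled by the authors within each table; a difference of 1 is a doubling. The scaling factor was 1.11 to 1.23 in MCD libraries against 0.832 to 0.899 in CD libraries, 1.01 to 1.05 in 4-week STAM libraries against 0.956 to 0.99 in their controls, and 1.05 to 1.16 in 10-week STAM libraries against 0.878 to 0.939 in their controls. Because the factor differed between the groups, scaling by total reads instead moved the median log2 fold change of all genes tested to 0.49 in MCD against CD (0.07 as deposited), to 0.09 in STAM at 4 weeks (0.01) and to 0.33 in STAM at 10 weeks (0.05). The share of called genes that were higher moved with it, to 86.1% (52.9% as deposited) in MCD livers, 83.7% (66.6%) in 4-week STAM livers and 88.0% (53.0%) in 10-week STAM livers. Every direction below is relative to the deposited scaling, and calls that total-read scaling ended are named. In whole liver, fewer cells of a type cannot be told apart from less RNA per cell. The smallest amount that could be told from 0, 3 reads, was at most 0.20 CPM in any library, and that floor covers counting error only.

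The interferon-stimulated response element was the feature most of the promoters shared. RefSeq promoter windows of 300 bases (build GRCm38.p6, 250 bases before to 50 after the start) matched 28 of the 39 genes by symbol. A response element was searched as GAAA, then any 2 bases, then GAAA, on both strands with overlapping matches allowed, and a gamma-activated site as TTCNNNGAA, which reads the same on both strands. The response element was present in 18 of 28 genes (64.3%), against 3.99% of all 27025 genes with a window. It was found in 5 of 8 Oas and Ifit genes with a window (62.5%) and in 6 of 6 GTPases; Mx1 and Mx2 were not searched. The gamma-activated site was present in 8 of 28 genes (28.6%), among them 2 of 8 Oas and Ifit genes and 3 of 6 GTPases, against 9.55% of all genes. A match describes letters in a window and is not a measured binding site. The stretches below, each of 60 bases printed 5′ to 3′ on the strand of the gene, show the element in both classes, with the matching letters in capitals.
Oas1a, chr5:120907505-120907564, minus strand: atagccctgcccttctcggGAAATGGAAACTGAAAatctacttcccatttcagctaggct
Oas1g, chr5:120887591-120887650, minus strand: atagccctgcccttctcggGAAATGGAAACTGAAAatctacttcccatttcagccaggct
Ifit1, chr19:34640779-34640838, plus strand: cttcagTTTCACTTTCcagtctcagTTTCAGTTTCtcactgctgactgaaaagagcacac
Isg15, chr4:156200850-156200909, minus strand: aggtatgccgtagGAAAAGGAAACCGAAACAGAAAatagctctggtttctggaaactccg
Gbp2, chr3:142620579-142620638, plus strand: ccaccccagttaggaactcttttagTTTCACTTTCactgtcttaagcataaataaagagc
Igtp, chr11:58199497-58199556, plus strand: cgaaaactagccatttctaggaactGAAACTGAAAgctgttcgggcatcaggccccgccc
Irgm2, chr11:58214888-58214947, plus strand: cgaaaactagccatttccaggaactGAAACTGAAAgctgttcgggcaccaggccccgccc
Irgm1, chr11:48871410-48871469, minus strand: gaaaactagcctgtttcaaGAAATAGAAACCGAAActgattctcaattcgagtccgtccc
The Oas1a and Oas1g stretches were identical at 59 of 60 bases and those of Igtp and Irgm2 at 58 of 60. Capitals run over 16 bases in Oas1a, Oas1g and Irgm1 because 2 matches overlap, and over 22 bases in Isg15, where 3 do. The capitals in Ifit1 and Gbp2 are the element read on the opposite strand. Such near-identical copies also share coding sequence, so reads of Oas1a and Oas1g, of Ifit3 and its copy Ifit3b, and of the Gbp genes with one another may have been divided uncertainly between them.

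Most of the interferon-stimulated genes were lower on the deficient diet. In MCD livers against CD livers, 27 of the 39 fell and 2 rose (Gbp2 and Rsad2) by limma on log2 CPM at a Benjamini-Hochberg adjusted p under 0.05, with a median log2 fold change of -0.70. The count of rises was 1 or 0 whenever a library was left out, and 0 without CD replicate 4, MCD replicate 1 or MCD replicate 4. Among the 15312 genes tested, 20.1% fell and 22.6% rose, and their median was 0.07. The largest falls were in Bst2, the cell-surface protein tetherin, and Dhx58, the RNA-binding protein LGP2, both at -1.49. All 4 MCD libraries lay below all 4 CD libraries for 26 of the 39 genes and above them for none, against 19.2% and 20.9% of all genes tested. With total-read scaling 17 genes fell and 2 rose, with a median of -0.28 beside the all-gene median of 0.49. Of all genes, 7.98% were then lower and 49.6% higher.

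STAM livers at 4 weeks showed the opposite direction. Of the 39 genes, 32 rose and none fell against age-matched controls, with a median log2 fold change of 1.02. Of all genes tested, 6.52% rose and 3.27% fell, with a median of 0.01. At an unadjusted p under 0.05 the counts were 35 higher and 0 lower, and voom on the recovered reads gave 33 higher and 0 lower. The largest rises were in Oas1a and Oas1g, which make the second messenger that activates RNase L, in Ifi27, a mitochondrial protein, and in Ifi44. All 5 STAM libraries lay above all 5 controls for 32 of 39 genes, against 6.38% of all genes, and below them for none, against 3.67%. Control replicate 1 had the lowest mean over the 39 genes, 4.00 log2 CPM against 4.29 to 4.50 in the other 4; without it, 33 genes rose.

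At 10 weeks the STAM increase persisted in most genes but not in all classes. In STAM livers 27 of the 39 genes rose and 4 fell, with a median log2 fold change of 0.66, whereas 25.3% of all genes rose and 22.5% fell, with a median of 0.05. The falls were in Irgm1, Iigp1, Irf1 and Stat2. Usp18, the protease that removes Isg15 from proteins and restrains type I receptor signalling, had the largest rise, 2.16. STAM libraries lay wholly above the controls for 18 genes (16.8% of all genes did) and wholly below for 2 (16.3%). With total-read scaling 31 genes rose and none fell, where 45.8% of all genes rose and 6.22% fell. Irf9 and Ifi35 were then called higher (0.22 and 0.28), and Iigp1 was at 0.01.

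**Figure D1:**
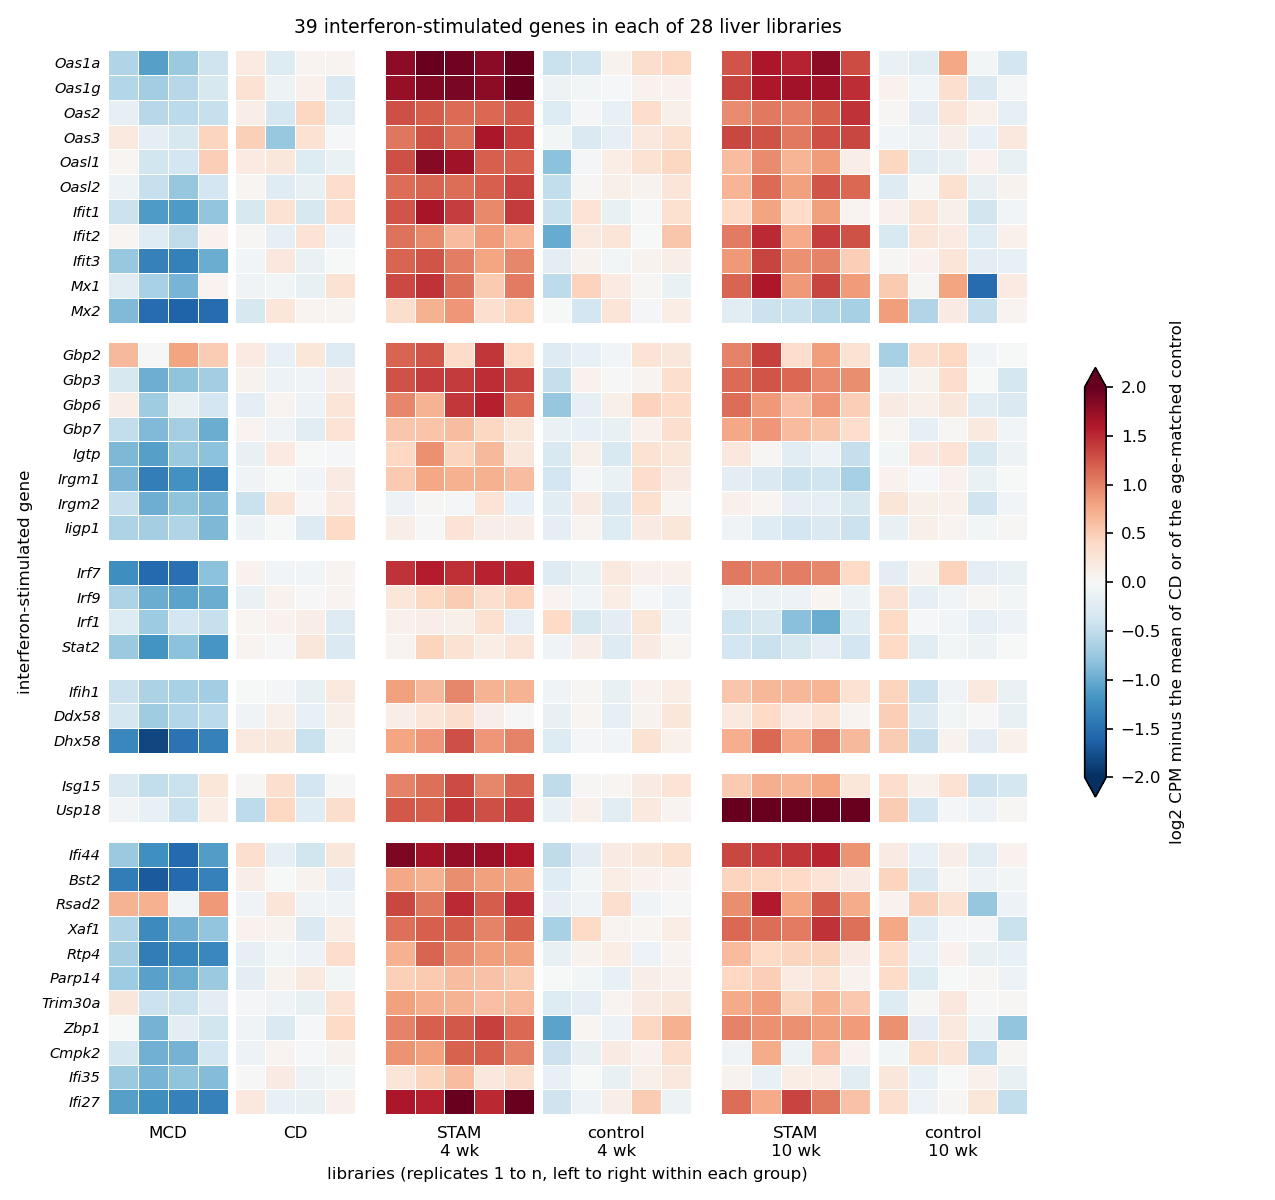
Each cell is the log2 CPM of 1 gene (rows, grouped by role) in 1 library (columns), minus the mean of the CD or age-matched control libraries of the same table. MCD columns are mostly blue and 4-week STAM columns mostly red, with 26 genes wholly below and 32 wholly above their controls, while the 10-week STAM columns are red for the Oas genes and blue for Irgm1 and Iigp1.

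**Figure D2:**
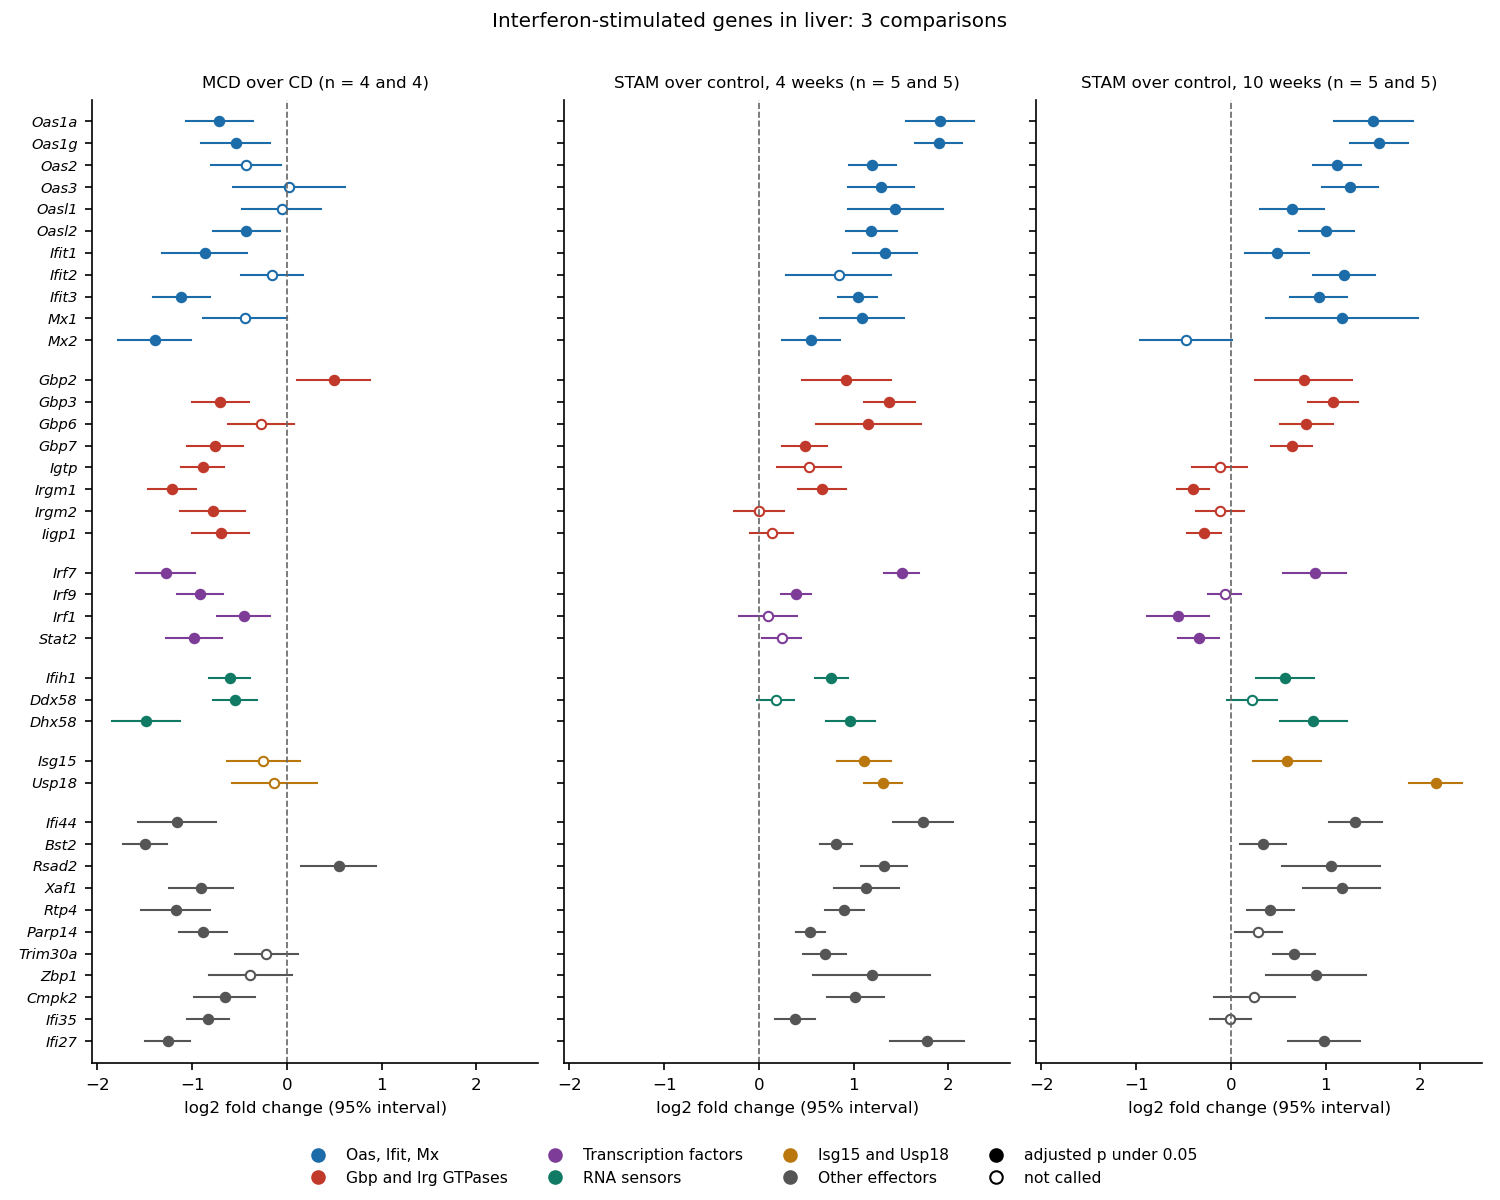
Points are log2 fold changes with 95% intervals from limma for the 39 genes, in MCD over CD (n = 4 and 4) and STAM over control at 4 and 10 weeks (n = 5 and 5 each); filled points passed an adjusted p under 0.05. The filled points lie mostly left of 0 in the MCD panel (27 lower, 2 higher) and right of 0 in the STAM panels (32 higher at 4 weeks, 27 higher and 4 lower at 10 weeks).

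Set side by side, 21 genes fell in MCD livers and rose in 4-week STAM livers, and 26 rose in STAM livers at both ages. The share of all genes with such joint patterns was not counted, so these counts describe the 39 genes only. In the single comparisons 20.1% of all genes fell in MCD livers, while 6.52% rose at 4 weeks and 25.3% at 10 weeks. The most frequent pattern, lower in MCD and higher in STAM at both ages, held for 15 genes, namely Oas1a, Oas1g, Oasl2, Ifit1, Ifit3, Gbp3, Gbp7, Irf7, Ifih1, Dhx58, Ifi44, Bst2, Xaf1, Rtp4 and Ifi27. A further 9 passed no test in MCD livers and rose in STAM at both ages (Oas2, Oas3, Oasl1, Mx1, Gbp6, Isg15, Usp18, Trim30a and Zbp1). Gbp2 and Rsad2 rose in all 3 comparisons. The rest were Mx2, Irf9, Parp14, Cmpk2 and Ifi35 (lower in MCD and higher in 4-week STAM, with no call at 10 weeks), Irgm1 (lower, higher and lower in that order), Iigp1, Irf1 and Stat2 (lower in MCD and in 10-week STAM), Igtp, Irgm2 and Ddx58 (lower in MCD alone) and Ifit2 (higher at 10 weeks alone). Every one of the 39 genes was called in at least 1 comparison. The authors' deposited tables, at their own adjusted p under 0.05, listed 2 of the 39 higher and 26 lower in MCD livers, 34 higher and 0 lower in 4-week STAM livers, and 27 higher and 5 lower in 10-week STAM livers. The share of all genes that passed in the authors' tables was not counted.

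Among the transcription factors, all 4 fell in MCD livers, where 20.1% of all genes did. Irf7, the factor that amplifies type I interferon production, measured 5.16, 4.84, 4.90 and 5.59 log2 CPM in MCD livers, against 6.49, 6.33, 6.33 and 6.46 in CD livers. Irf7 fell without overlap between the groups (log2 fold change -1.28, SE 0.15, adjusted p = 2.40e-05). Irf7 measured 6.41, 6.54, 6.42, 6.51 and 6.49 log2 CPM in 4-week STAM livers, against 4.71, 4.83, 5.16, 5.07 and 5.06 in controls. It rose there without overlap between the groups (log2 fold change 1.51, SE 0.09, adjusted p = 8.57e-07). Its later values were 5.93, 5.87, 5.90, 5.85 and 5.27 log2 CPM in 10-week STAM livers, against 4.67, 4.95, 5.34, 4.68 and 4.75 in controls. The 10-week rise was smaller (log2 fold change 0.88, SE 0.15, adjusted p = 0.000564), with some overlap between the groups, and STAM replicate 5 was the lowest of its group. Irf9, the DNA-binding partner of Stat2, measured 5.67, 5.29, 5.22 and 5.29 log2 CPM in MCD livers, against 6.15, 6.35, 6.30 and 6.34 in CD livers. Irf9 fell in MCD livers (log2 fold change -0.92, SE 0.11, adjusted p = 3.65e-05). Irf9 measured 5.56, 5.73, 5.83, 5.66 and 5.78 log2 CPM in 4-week STAM livers, against 5.37, 5.26, 5.47, 5.30 and 5.21 in controls, and it rose without overlap between the groups (log2 fold change 0.39, SE 0.07, adjusted p = 0.00575). With 5.43, 5.40, 5.38, 5.54 and 5.40 log2 CPM in 10-week STAM livers, against 5.78, 5.32, 5.42, 5.51 and 5.45 in controls, Irf9 was not called at 10 weeks (-0.07, adjusted p = 0.515). Stat2 fell in MCD livers (log2 fold change -0.98, SE 0.14, adjusted p = 9.91e-05) and Irf1, a factor strongly induced by interferon gamma, fell as well (log2 fold change -0.46, SE 0.13, adjusted p = 0.0130). Neither passed the test at 4 weeks (Stat2 0.24, adjusted p = 0.146, Irf1 0.09, adjusted p = 0.756). Both fell at 10 weeks (Stat2 -0.34, adjusted p = 0.0137, Irf1 -0.56, adjusted p = 0.00914); scaled by total reads the values were -0.05, adjusted p = 0.694 and -0.27, adjusted p = 0.174, and neither passed the test. The MCD fall of Irf1 also ended under that scaling (-0.03, adjusted p = 0.843).

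All 3 RNA sensors fell in MCD livers and 2 of the 3 rose in STAM livers at both ages. Among all genes 20.1% fell in MCD livers, while 6.52% rose at 4 weeks and 25.3% at 10 weeks. Dhx58, which modulates the other sensors, measured 3.54, 3.01, 3.36 and 3.49 log2 CPM in MCD livers, against 5.03, 5.06, 4.40 and 4.86 in CD livers. It fell without overlap between the groups (log2 fold change -1.49, SE 0.16, adjusted p = 1.74e-05). Dhx58 measured 4.40, 4.48, 4.89, 4.48 and 4.59 log2 CPM in 4-week STAM livers, against 3.33, 3.55, 3.53, 3.89 and 3.70 in controls, and later 4.11, 4.54, 4.15, 4.45 and 4.04 log2 CPM in 10-week STAM livers, against 3.90, 2.91, 3.46, 3.17 and 3.48 in controls. Dhx58 rose at both ages (log2 fold change 0.97, SE 0.12, adjusted p = 0.000291 at 4 weeks and log2 fold change 0.87, SE 0.16, adjusted p = 0.000892 at 10 weeks), in neither case with overlap between the groups. Ifih1, the sensor MDA5 for long double-stranded RNA, measured 6.004, 5.80, 5.78 and 5.75 log2 CPM in MCD livers, against 6.42, 6.40, 6.29 and 6.63 in CD livers. It fell in MCD livers (log2 fold change -0.60, SE 0.10, adjusted p = 0.000420). Ifih1 measured 6.48, 6.31, 6.64, 6.35 and 6.35 log2 CPM in 4-week STAM livers, against 5.58, 5.68, 5.51, 5.73 and 5.81 in controls, and it rose without overlap between the groups (log2 fold change 0.77, SE 0.08, adjusted p = 0.000107). Ifih1 then measured 5.75, 5.85, 5.87, 5.88 and 5.50 log2 CPM in 10-week STAM livers, against 5.65, 4.77, 5.11, 5.39 and 5.07 in controls, and it rose with some overlap between the groups (log2 fold change 0.57, SE 0.14, adjusted p = 0.00524). Ddx58, the sensor RIG-I, fell in MCD livers (log2 fold change -0.54, SE 0.11, adjusted p = 0.00126). It passed no test in STAM livers (0.18, adjusted p = 0.264 at 4 weeks and 0.23, adjusted p = 0.147 at 10 weeks), although at 10 weeks it did without control replicate 1 (0.35, adjusted p = 0.00390) and under total-read scaling (0.52, adjusted p = 0.00213). The MCD falls of Ifih1 and Ddx58 were not called under total-read scaling (-0.18, adjusted p = 0.128 and -0.12, adjusted p = 0.329).

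The Oas, Ifit and Mx genes were lower in MCD livers in 6 of 11 cases and higher in none. Among all genes 20.1% were lower and 22.6% higher. The median log2 fold change of the 11 genes was -0.44. At an unadjusted p under 0.05 the counts were 7 lower and 0 higher, and voom gave 5 lower and 0 higher. Scaled by total reads, 2 of the 11 fell, where 7.98% of all genes did, and the median was -0.02, with all genes at 0.49. Mx2, a gene of the dynamin-like GTPase family, had the largest fall, measuring 3.50, 2.84, 2.78 and 2.85 log2 CPM in MCD livers, against 4.05, 4.64, 4.45 and 4.42 in CD livers. All MCD libraries were below all CD libraries, and MCD replicate 1 was the highest of its group (log2 fold change -1.40, SE 0.18, adjusted p = 5.47e-05). Ifit3, a member of the family that binds foreign RNA, measured 5.46, 4.88, 4.86 and 5.23 log2 CPM in MCD livers, against 6.15, 6.44, 6.09 and 6.21 in CD livers, and it fell without overlap between the groups (log2 fold change -1.12, SE 0.14, adjusted p = 4.38e-05). Ifit1 measured 5.49, 4.78, 4.79 and 5.13 log2 CPM in MCD livers, against 5.58, 6.22, 5.58 and 6.28 in CD livers, a fall without overlap between the groups (log2 fold change -0.87, SE 0.20, adjusted p = 0.00528) that was not called under total-read scaling (-0.44, adjusted p = 0.0725). Oas1a measured 3.13, 2.64, 2.99 and 3.33 log2 CPM in MCD livers, against 3.91, 3.46, 3.78 and 3.79 in CD livers, and Oas1g 2.32, 2.20, 2.35 and 2.57 log2 CPM in MCD livers, against 3.21, 2.79, 3.002 and 2.61 in CD livers. Oas1a fell by 0.72 and Oas1g by 0.54 on the log2 scale (adjusted p = 0.00364 and 0.0191), and Oasl2 by 0.43 (adjusted p = 0.049996). Oasl2 measured 4.34, 3.99, 3.68 and 4.09 log2 CPM in MCD livers, against 4.48, 4.20, 4.30 and 4.82 in CD livers, with some overlap between the groups. None of these 3 falls was called under total-read scaling, and that of Oasl2 was lost without any 1 of 6 libraries (adjusted p 0.0562 to 0.151), and also with voom, after quantile normalization and without a filter on low values. Oas1g was lost without CD replicate 1, CD replicate 3 or MCD replicate 2 (adjusted p 0.0507 to 0.0592). The 5 not called were Oas2 (-0.43, adjusted p = 0.0576), Oas3 (0.02, adjusted p = 0.952), Oasl1 (-0.05, adjusted p = 0.838), Ifit2 (-0.16, adjusted p = 0.417) and Mx1 (-0.44, adjusted p = 0.102). Oas2 was called lower without CD replicate 2, CD replicate 4 or MCD replicate 1 (adjusted p 0.0252 to 0.0417) and Mx1 without MCD replicate 4 (adjusted p 0.0226).

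In 4-week STAM livers 10 of the 11 rose and none fell, where 6.52% of all genes rose and 3.27% fell. The median of the 11 was 1.20. At an unadjusted p under 0.05, and with voom, 11 rose and 0 fell. Oas1a measured 3.90, 4.13, 4.06, 3.91 and 4.12 log2 CPM in 4-week STAM livers, against 1.67, 1.72, 2.18, 2.46 and 2.52 in controls. Every STAM library exceeded every control (log2 fold change 1.91, SE 0.17, adjusted p = 2.51e-05), a fold of 3.76. Oas1g measured 3.56, 3.67, 3.72, 3.60 and 4.04 log2 CPM in 4-week STAM livers, against 1.72, 1.77, 1.79, 1.91 and 1.90 in controls, again without overlap between the groups (log2 fold change 1.90, SE 0.11, adjusted p = 1.16e-06). Oasl1, which represses translation of Irf7, measured 4.84, 5.39, 5.26, 4.76 and 4.75 log2 CPM in 4-week STAM livers, against 2.73, 3.52, 3.70, 3.85 and 3.99 in controls. Oasl1 rose without overlap between the groups, and control replicate 1 was the lowest of its group (log2 fold change 1.44, SE 0.23, adjusted p = 0.00309). Ifit1 measured 5.01, 5.40, 5.13, 4.71 and 5.15 log2 CPM in 4-week STAM livers, against 3.30, 4.02, 3.60, 3.76 and 4.06 in controls, and Ifit3 5.70, 5.80, 5.56, 5.33 and 5.51 log2 CPM in 4-week STAM livers, against 4.33, 4.60, 4.48, 4.60 and 4.67 in controls. Both rose without overlap between the groups (Ifit1 1.33, adjusted p = 0.000238, Ifit3 1.04, adjusted p = 3.43e-05). Mx2 measured 3.34, 3.70, 3.87, 3.33 and 3.46 log2 CPM in 4-week STAM livers, against 2.99, 2.62, 3.25, 2.96 and 3.15 in controls. Its rise of 0.55 had an adjusted p of 0.0287 and was lost without any 1 of 5 libraries (adjusted p 0.0514 to 0.0669). Oasl2 measured 4.45, 4.49, 4.45, 4.52 and 4.68 log2 CPM in 4-week STAM livers, against 2.84, 3.36, 3.46, 3.40 and 3.59 in controls, and it rose without overlap between the groups (log2 fold change 1.19, SE 0.13, adjusted p = 0.000102). Oas2, Oas3 and Mx1 rose by 1.20, 1.29 and 1.09. Ifit2 alone of the class did not pass the test (0.84, adjusted p = 0.0602), but it did without control replicate 1 (adjusted p = 0.00808) or control replicate 5 (adjusted p = 0.0348). In C57BL/6 mice the Mx1 gene is known to carry a deletion that leaves no functional protein.

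At 10 weeks 10 of the 11 rose in STAM livers and none fell, where 25.3% of all genes rose and 22.5% fell. The median of the 11 was 1.12. At an unadjusted p under 0.05, and with voom, 10 rose and 0 fell. Oas1g measured 2.75, 3.01, 3.07, 3.09 and 2.86 log2 CPM in 10-week STAM livers, against 1.48, 1.32, 1.73, 1.09 and 1.35 in controls, and Oas1a 3.10, 3.48, 3.39, 3.64 and 3.16 log2 CPM in 10-week STAM livers, against 1.73, 1.62, 2.63, 1.80 and 1.49 in controls. Both rose without overlap between the groups (Oas1g 1.57, adjusted p = 2.86e-06, Oas1a 1.50, adjusted p = 4.75e-05), although Oas1a was high in control replicate 3. Oas3 measured 2.44, 2.38, 2.17, 2.41 and 2.44 log2 CPM in 10-week STAM livers, against 1.04, 1.002, 1.24, 0.95 and 1.32 in controls, and it rose without overlap between the groups (log2 fold change 1.26, SE 0.14, adjusted p = 1.21e-05). Ifit1 measured 4.01, 4.42, 3.997, 4.44 and 3.67 log2 CPM in 10-week STAM livers, against 3.72, 3.87, 3.73, 3.23 and 3.54 in controls. Its rise (log2 fold change 0.49, SE 0.16, adjusted p = 0.0196) came with some overlap between the groups and was lost without STAM replicate 2 or 4 (adjusted p 0.0513 to 0.0517). Ifit3 measured 4.89, 5.37, 4.94, 5.02 and 4.51 log2 CPM in 10-week STAM livers, against 4.05, 4.10, 4.28, 3.81 and 3.86 in controls, and it rose without overlap between the groups (log2 fold change 0.93, SE 0.14, adjusted p = 0.000156). Ifit2 rose as well (log2 fold change 1.19, SE 0.15, adjusted p = 4.42e-05). Mx1 rose (log2 fold change 1.17, SE 0.37, adjusted p = 0.0202), a call that quantile normalization ended (0.69, adjusted p = 0.110). Mx2 measured 2.94, 2.73, 2.72, 2.60 and 2.50 log2 CPM in 10-week STAM livers, against 4.004, 2.57, 3.32, 2.71 and 3.23 in controls. Its value of -0.47 did not pass the test (adjusted p = 0.103), and it was called lower without control replicate 2 (-0.62, adjusted p = 0.0295) and after quantile normalization (-0.68, adjusted p = 0.0222). Oasl2 measured 3.72, 4.18, 3.85, 4.30 and 4.19 log2 CPM in 10-week STAM livers, against 2.78, 3.06, 3.36, 2.89 and 3.10 in controls, and it rose without overlap between the groups (log2 fold change 1.01, SE 0.13, adjusted p = 5.58e-05). Oas2 and Oasl1 rose by 1.12 and 0.65.

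The GTPases classically induced by interferon gamma, which attack the vacuoles of intracellular pathogens, were lower in MCD livers in 6 of 8 cases and higher in 1. Among all genes 20.1% were lower and 22.6% higher. Irgm1, a regulator of the other immunity-related GTPases, measured 6.86, 6.39, 6.57 and 6.42 log2 CPM in MCD livers, against 7.68, 7.76, 7.70 and 7.94 in CD livers. It fell without overlap between the groups (log2 fold change -1.21, SE 0.12, adjusted p = 5.40e-06). Igtp, also called Irgm3, measured 5.90, 5.71, 6.07 and 5.98 log2 CPM in MCD livers, against 6.65, 6.99, 6.79 and 6.78 in CD livers, a fall without overlap between the groups (log2 fold change -0.89, SE 0.11, adjusted p = 3.19e-05). Irgm2 measured 7.21, 6.69, 6.87 and 6.78 log2 CPM in MCD livers, against 7.23, 7.93, 7.69 and 7.85 in CD livers, and it fell without overlap between the groups (log2 fold change -0.78, SE 0.16, adjusted p = 0.00160). Gbp3 measured 4.28, 3.63, 3.80 and 3.90 log2 CPM in MCD livers, against 4.67, 4.49, 4.52 and 4.74 in CD livers, and Gbp7 4.56, 4.17, 4.38 and 4.07 log2 CPM in MCD livers, against 5.11, 4.97, 4.83 and 5.33 in CD livers. Both of these guanylate-binding proteins fell without overlap (Gbp3 -0.70, adjusted p = 0.00140, Gbp7 -0.76, adjusted p = 0.000730). Gbp2 rose instead (log2 fold change 0.49, SE 0.18, adjusted p = 0.0404), a call lost without any 1 of 5 libraries (adjusted p 0.0723 to 0.122) and after quantile normalization. Gbp6 did not pass the test (-0.27, adjusted p = 0.196) but was called lower without MCD replicate 1 (-0.41, adjusted p = 0.0438). Iigp1, the effector Irga6, fell (log2 fold change -0.70, SE 0.14, adjusted p = 0.00149), and this was not called under total-read scaling (-0.27, adjusted p = 0.0667) or quantile normalization (-0.01, adjusted p = 0.973). The Gbp3 fall was likewise not called under total-read scaling (-0.28, adjusted p = 0.116).

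In STAM livers the Gbp genes and the immunity-related GTPases parted at 10 weeks, while at 4 weeks their values overlapped. At 4 weeks Irgm1 (0.67) and Igtp (0.53) lay above Gbp7 (0.49). The families were not compared by a test. This split of the class was made after the values were seen and is a description. All 4 Gbp genes rose at both ages, with medians of 1.04 at 4 weeks and 0.78 at 10 weeks. The share of all genes that rose was 6.52% at 4 weeks and 25.3% at 10 weeks. Gbp3 measured 4.72, 4.82, 4.83, 4.91 and 4.79 log2 CPM in 4-week STAM livers, against 2.97, 3.52, 3.44, 3.48 and 3.78 in controls, and it rose without overlap between the groups (log2 fold change 1.38, SE 0.12, adjusted p = 2.99e-05). Gbp6 measured 6.15, 5.86, 6.57, 6.73 and 6.30 log2 CPM in 4-week STAM livers, against 4.39, 4.98, 5.28, 5.63 and 5.55 in controls, without overlap between the groups and with control replicate 1 the lowest (log2 fold change 1.16, SE 0.25, adjusted p = 0.0169). Gbp2 measured 4.25, 4.33, 3.46, 4.50 and 3.47 log2 CPM in 4-week STAM livers, against 2.82, 2.91, 3.01, 3.35 and 3.30 in controls, without overlap between the groups, where STAM replicates 3 and 5 stood closest to the controls (log2 fold change 0.92, SE 0.21, adjusted p = 0.0185). Without STAM replicate 1 the Gbp2 rise had an adjusted p of 0.0523. Gbp7 measured 5.50, 5.51, 5.55, 5.37 and 5.17 log2 CPM in 4-week STAM livers, against 4.79, 4.78, 4.79, 5.04 and 5.27 in controls, and it rose with some overlap between the groups (log2 fold change 0.49, SE 0.11, adjusted p = 0.0142). With the replicate number as a block that call was lost (limma adjusted p = 0.0725). Gbp3 measured 4.25, 4.38, 4.25, 4.05 and 4.04 log2 CPM in 10-week STAM livers, against 3.01, 3.19, 3.49, 3.11 and 2.77 in controls, without overlap between the groups (log2 fold change 1.08, SE 0.12, adjusted p = 1.75e-05). Gbp6 then measured 5.76, 5.51, 5.25, 5.53 and 5.14 log2 CPM in 10-week STAM livers, against 4.80, 4.77, 4.87, 4.41 and 4.36 in controls, without overlap between the groups (log2 fold change 0.80, SE 0.13, adjusted p = 0.000307). Gbp2 measured 3.87, 4.24, 3.24, 3.71 and 3.16 log2 CPM in 10-week STAM livers, against 2.21, 3.21, 3.28, 2.81 and 2.86 in controls, with some overlap between the groups (log2 fold change 0.77, SE 0.24, adjusted p = 0.0186), and quantile normalization ended that call (0.63, adjusted p = 0.0545). Gbp7 measured 5.15, 5.26, 5.01, 4.93 and 4.74 log2 CPM in 10-week STAM livers, against 4.41, 4.20, 4.40, 4.58 and 4.30 in controls, and it rose without overlap between the groups (log2 fold change 0.64, SE 0.10, adjusted p = 0.000189).

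Of the immunity-related GTPases, Irgm1 alone rose at 4 weeks and none of the 4 fell, where 6.52% of all genes rose and 3.27% fell. The median of the 4 was 0.33. At an unadjusted p under 0.05, 2 rose and 0 fell, and voom gave 1 and 0. Irgm1 measured 6.87, 7.12, 7.07, 7.07 and 6.97 log2 CPM in 4-week STAM livers, against 5.98, 6.32, 6.21, 6.71 and 6.52 in controls, and it rose without overlap between the groups (log2 fold change 0.67, SE 0.12, adjusted p = 0.00355). Igtp missed the threshold (0.53, adjusted p = 0.0537) and passed it without control replicate 4 or STAM replicate 5 (adjusted p 0.0427 to 0.0428). Igtp also passed under total-read scaling (0.60, limma adjusted p = 0.0353) and with the replicate number as a block (limma adjusted p = 0.0462). Irgm2 and Iigp1 were at -0.0018 and 0.13 and were not called. Irgm1 later measured 6.42, 6.33, 6.21, 6.25 and 5.98 log2 CPM in 10-week STAM livers, against 6.72, 6.62, 6.72, 6.51 and 6.63 in controls. It fell without overlap between the groups (log2 fold change -0.40, SE 0.08, adjusted p = 0.00119), with a value under total-read scaling of -0.11, adjusted p = 0.260, which was not called. Iigp1 also fell at 10 weeks (log2 fold change -0.28, SE 0.09, adjusted p = 0.0148), and that call was lost under total-read scaling, quantile normalization and a replicate term (adjusted p 0.0512 to 0.999). No gene of the 4 rose at 10 weeks, where 25.3% of all genes did. None of the 4 rose at an unadjusted p under 0.05 or with voom. The median of the 4 was -0.20, which total-read scaling turned to 0.09. The mean log2 CPM over the 4 genes was 6.85 ± 0.18 in 10-week STAM livers and 7.07 ± 0.14 in their controls (SD, n = 5 each), while the mean over the 4 Gbp genes was 4.57 ± 0.23 in STAM livers and 3.75 ± 0.18 in controls.

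**Figure D3:**
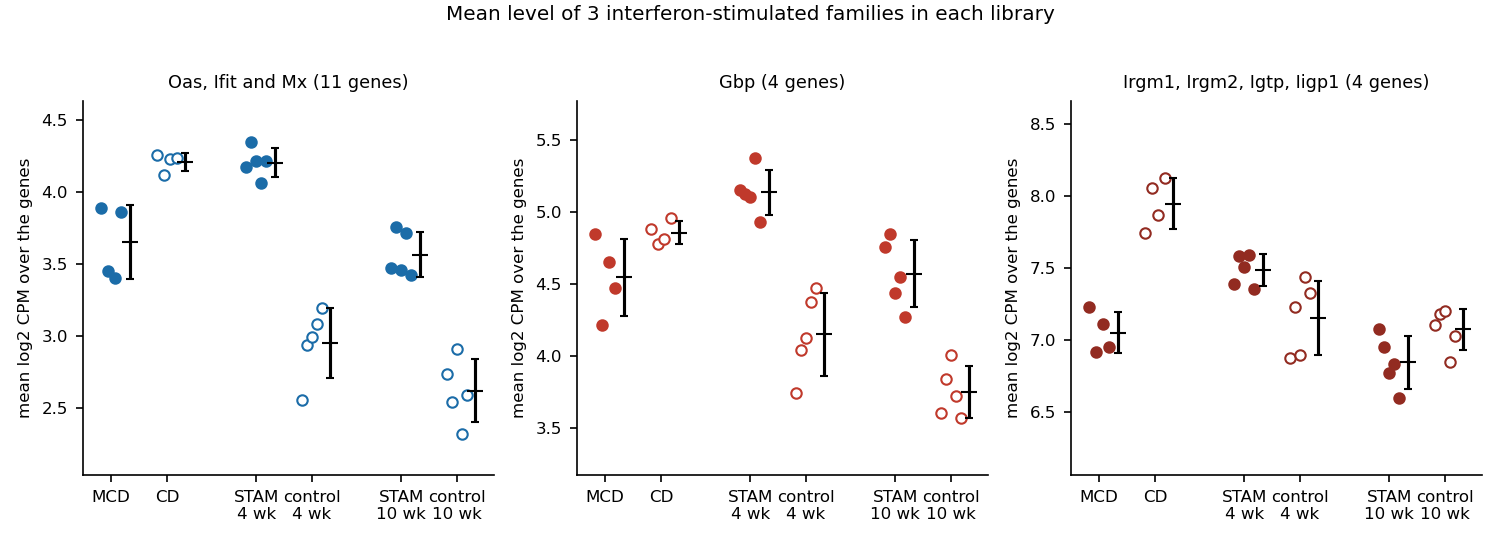
Each point is 1 library, plotted as the mean log2 CPM over the Oas, Ifit and Mx genes (left), the 4 Gbp genes (middle) or Irgm1, Irgm2, Igtp and Iigp1 (right); filled points are MCD or STAM libraries, open points their controls, and bars give the mean and SD (n = 4 or 5). In the left and middle panels both STAM groups lie above their controls, while in the right panel the 10-week STAM mean of 6.85 lies below the control mean of 7.07.

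Isg15 and Usp18 passed no test in MCD livers, also at an unadjusted p under 0.05 and with voom, and rose in STAM livers at both ages. Among all genes 6.52% rose at 4 weeks and 25.3% at 10 weeks. Isg15 measured 4.32, 4.12, 4.16 and 4.85 log2 CPM in MCD livers, against 4.63, 4.94, 4.25 and 4.63 in CD livers, with some overlap between the groups (log2 fold change -0.25, adjusted p = 0.276). Without MCD replicate 4 it was called lower (-0.41, adjusted p = 0.0464). Its rises in STAM livers were 1.11, adjusted p = 0.000240 at 4 weeks and 0.60, adjusted p = 0.00956 at 10 weeks. Usp18 measured 5.16, 5.12, 5.34, 5.20 and 5.30 log2 CPM in 4-week STAM livers, against 3.78, 4.02, 3.68, 4.11 and 3.97 in controls, and it rose without overlap between the groups (log2 fold change 1.31, SE 0.09, adjusted p = 3.98e-06). Usp18 later measured 5.20, 5.16, 5.18, 5.003 and 5.11 log2 CPM in 10-week STAM livers, against 3.48, 2.60, 2.93, 2.85 and 2.99 in controls. Every STAM library exceeded every control (log2 fold change 2.16, SE 0.13, adjusted p = 1.67e-07), a fold of 4.47. In MCD livers the Usp18 value was -0.13, adjusted p = 0.635.

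Of the 11 other effectors, 8 fell and 1 rose in MCD livers, where 20.1% of all genes fell and 22.6% rose. In STAM livers 11 rose at 4 weeks and 8 at 10 weeks, where 6.52% and 25.3% of all genes rose. None fell in either STAM comparison, where 3.27% and 22.5% of all genes fell. The counts of effectors lower there at an unadjusted p under 0.05, and with voom, were 0. Bst2, which tethers budding virions, measured 5.35, 5.06, 5.20 and 5.40 log2 CPM in MCD livers, against 6.89, 6.74, 6.81 and 6.55 in CD livers. The fall was without overlap between the groups (log2 fold change -1.49, SE 0.11, adjusted p = 5.66e-07), or 2.82-fold. Ifi27 measured 5.72, 5.58, 5.46 and 5.47 log2 CPM in MCD livers, against 7.03, 6.65, 6.66 and 6.92 in CD livers, a fall without overlap between the groups (log2 fold change -1.26, SE 0.11, adjusted p = 2.60e-06). Rtp4, a chaperone of receptors at the cell surface, measured 5.03, 4.32, 4.40 and 4.41 log2 CPM in MCD livers, against 5.53, 5.66, 5.59 and 6.08 in CD livers, and it fell without overlap between the groups (log2 fold change -1.18, SE 0.17, adjusted p = 0.000134). Rsad2, which encodes viperin, was the exception, with 6.69, 6.70, 5.91 and 6.85 log2 CPM in MCD livers, against 5.90, 6.24, 5.91 and 5.91 in CD livers. MCD replicate 3 lay within the range of the CD libraries and the other 3 were above them all (log2 fold change 0.55, SE 0.18, adjusted p = 0.0290). The Rsad2 call was lost without any 1 of 6 libraries (adjusted p 0.0639 to 0.0846). Cmpk2 lies beside Rsad2 on chromosome 12, the pair spanning 26442743 to 26479837 (mm10); it measured 4.47, 3.87, 3.89 and 4.46 log2 CPM in MCD livers, against 4.72, 4.89, 4.81 and 4.90 in CD livers and fell (log2 fold change -0.66, SE 0.15, adjusted p = 0.00358), a call that total-read scaling ended (-0.23, adjusted p = 0.236). Ifi44 measured 4.23, 3.75, 3.42 and 3.87 log2 CPM in MCD livers, against 5.31, 4.80, 4.60 and 5.20 in CD livers, and it fell without overlap between the groups (log2 fold change -1.16, SE 0.19, adjusted p = 0.000401). Xaf1 measured 3.76, 3.10, 3.40 and 3.57 log2 CPM in MCD livers, against 4.45, 4.44, 4.05 and 4.51 in CD livers, and it fell without overlap between the groups (log2 fold change -0.91, SE 0.16, adjusted p = 0.000538). Parp14 measured 6.28, 5.92, 6.01 and 6.27 log2 CPM in MCD livers, against 6.80, 7.07, 7.20 and 6.96 in CD livers, and Ifi35 4.39, 4.20, 4.32 and 4.26 log2 CPM in MCD livers, against 5.13, 5.29, 5.02 and 5.07 in CD livers. These fell by 0.89 and 0.83 (adjusted p = 6.47e-05 and 3.55e-05). Trim30a and Zbp1 were not called (-0.22, adjusted p = 0.274 and -0.39, adjusted p = 0.139), though Trim30a was called lower without MCD replicate 1 (-0.36, adjusted p = 0.0417).

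Ifi27 measured 6.75, 6.67, 7.16, 6.64 and 7.28 log2 CPM in 4-week STAM livers, against 4.70, 5.01, 5.26, 5.62 and 5.02 in controls. It rose without overlap between the groups (log2 fold change 1.78, SE 0.18, adjusted p = 0.000136). Ifi27 overlaps Ifi27l2a on the opposite strand, and with the strand setting of the count not given, reads of the pair may not have been told apart. Ifi44 measured 4.67, 4.47, 4.54, 4.51 and 4.39 log2 CPM in 4-week STAM livers, against 2.28, 2.58, 2.96, 3.01 and 3.10 in controls, and it rose without overlap between the groups (log2 fold change 1.73, SE 0.15, adjusted p = 1.65e-05). Rsad2 measured 5.79, 5.53, 5.94, 5.66 and 5.95 log2 CPM in 4-week STAM livers, against 4.27, 4.37, 4.80, 4.37 and 4.47 in controls, and it rose without overlap between the groups (log2 fold change 1.32, SE 0.11, adjusted p = 1.65e-05). Bst2 measured 7.33, 7.27, 7.49, 7.37 and 7.37 log2 CPM in 4-week STAM livers, against 6.31, 6.50, 6.70, 6.65 and 6.61 in controls, and Rtp4 4.81, 5.27, 5.07, 4.94 and 4.93 log2 CPM in 4-week STAM livers, against 3.95, 4.17, 4.25, 3.99 and 4.15 in controls. Both rose without overlap between the groups (Bst2 0.81, adjusted p = 5.93e-05, Rtp4 0.90, adjusted p = 0.000102). Parp14, an ADP-ribosyltransferase, measured 6.64, 6.67, 6.77, 6.73 and 6.67 log2 CPM in 4-week STAM livers, against 6.15, 6.10, 5.99, 6.28 and 6.26 in controls, and Cmpk2, a mitochondrial nucleotide kinase, 4.29, 4.20, 4.58, 4.58 and 4.40 log2 CPM in 4-week STAM livers, against 2.95, 3.25, 3.55, 3.47 and 3.73 in controls. Parp14 rose by 0.54 and Cmpk2 by 1.02 (adjusted p = 0.000386 and 0.000609). Ifi35 measured 4.78, 4.97, 5.13, 4.74 and 4.87 log2 CPM in 4-week STAM livers, against 4.36, 4.52, 4.36, 4.63 and 4.72 in controls. Its rise of 0.38 (adjusted p = 0.0284) was lost without any 1 of 5 libraries (adjusted p 0.0560 to 0.0654). Zbp1, a sensor of Z-form nucleic acid, rose by 1.19, lost likewise without any 1 of 6 libraries (adjusted p 0.0512 to 0.0567). Xaf1 measured 3.88, 3.98, 3.99, 3.78 and 3.96 log2 CPM in 4-week STAM livers, against 2.14, 3.18, 2.84, 2.83 and 2.93 in controls, and it rose without overlap between the groups (log2 fold change 1.13, SE 0.16, adjusted p = 0.000786). Trim30a rose by 0.70.

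Ifi44 measured 3.63, 3.67, 3.72, 3.81 and 3.19 log2 CPM in 10-week STAM livers, against 2.46, 2.13, 2.43, 2.07 and 2.38 in controls, with STAM replicate 5 the lowest of its group. It rose without overlap between the groups (log2 fold change 1.31, SE 0.13, adjusted p = 6.65e-06). Xaf1, a partner of the apoptosis inhibitor Xiap, measured 3.57, 3.54, 3.47, 3.88 and 3.52 log2 CPM in 10-week STAM livers, against 3.20, 2.18, 2.39, 2.38 and 1.99 in controls, and it rose without overlap between the groups (log2 fold change 1.17, SE 0.19, adjusted p = 0.000245). Rsad2 measured 4.32, 4.97, 4.18, 4.62 and 4.14 log2 CPM in 10-week STAM livers, against 3.47, 3.89, 3.70, 2.62 and 3.27 in controls, and it rose without overlap between the groups (log2 fold change 1.05, SE 0.24, adjusted p = 0.00376). Control replicate 1 was the highest control for Xaf1, Zbp1, Bst2, Ifi44, Rtp4, Parp14, Ifi35 and Ifi27. In the other classes it was the highest control for Irf1, Irf9, Stat2, Ifih1, Ddx58, Dhx58, Isg15, Usp18, Oasl1, Mx2, Irgm1 and Irgm2. Ifi27 measured 6.88, 6.52, 7.12, 6.84 and 6.35 log2 CPM in 10-week STAM livers, against 6.09, 5.65, 5.79, 6.004 and 5.28 in controls, and it rose without overlap between the groups (log2 fold change 0.98, SE 0.17, adjusted p = 0.000871). Rtp4 measured 4.81, 4.58, 4.63, 4.64 and 4.35 log2 CPM in 10-week STAM livers, against 4.58, 4.03, 4.27, 4.03 and 4.02 in controls, and it rose with some overlap between the groups (log2 fold change 0.42, SE 0.12, adjusted p = 0.00916). Zbp1 and Trim30a rose by 0.90 and 0.66. Bst2 measured 6.81, 6.77, 6.76, 6.64 and 6.52 log2 CPM in 10-week STAM livers, against 6.80, 6.08, 6.39, 6.25 and 6.30 in controls, with some overlap between the groups (log2 fold change 0.34, SE 0.11, adjusted p = 0.0255). The Bst2 call was lost without any 1 of 6 libraries (adjusted p 0.0519 to 0.0621). Parp14 (0.29, adjusted p = 0.0521), Cmpk2 (0.25, adjusted p = 0.318) and Ifi35 (-0.01, adjusted p = 0.963) were not called. Parp14 measured 6.51, 6.58, 6.28, 6.39 and 6.16 log2 CPM in 10-week STAM livers, against 6.48, 5.81, 6.08, 6.11 and 5.98 in controls. Cmpk2 measured 2.90, 3.73, 2.89, 3.58 and 3.07 log2 CPM in 10-week STAM livers, against 2.93, 3.31, 3.24, 2.46 and 3.01 in controls, and Ifi35 4.76, 4.52, 4.84, 4.84 and 4.46 log2 CPM in 10-week STAM livers, against 4.92, 4.52, 4.68, 4.79 and 4.54 in controls. The groups overlapped in all 3. Parp14 was called higher without control replicate 1 or STAM replicate 5 (adjusted p 0.00399 to 0.0283), and under total-read scaling Ifi35 was called higher at 0.28.

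The STAM effect changed between ages in 14 of the 39 genes. Tested as the difference of the STAM effects, 10 weeks minus 4 weeks, 13 genes had a lower effect at 10 weeks and 1 a higher one, where 11.2% and 8.89% of all genes did, with medians of -0.33 over the 39 genes and 0.02 over all. All 4 transcription factors were among the 13 (Irf1 -0.65, adjusted p = 0.0411, Irf7 -0.62, adjusted p = 0.0198, Stat2 -0.58, adjusted p = 0.00825 and Irf9 -0.46, adjusted p = 0.00555). So were 3 of the 4 immunity-related GTPases (Irgm1 -1.07, adjusted p = 8.08e-05, Igtp -0.64, adjusted p = 0.0450 and Iigp1 -0.42, adjusted p = 0.0326) and none of the Gbp genes, for which the counts at an unadjusted p under 0.05, and with voom, were 0. Of the Oas, Ifit and Mx genes, Mx2 (-1.02, adjusted p = 0.0144) and Ifit1 (-0.84, adjusted p = 0.0153) were among them, as were Bst2, Rtp4, Cmpk2 and Ifi27 of the other effectors. Usp18 moved the other way (0.85, adjusted p = 0.00130). No RNA sensor differed, also at an unadjusted p under 0.05 and with voom. With total-read scaling 2 genes had a lower effect (Irgm1 and Mx2) and 1 a higher one (Usp18), where 3.59% of all genes had a lower and 19.3% a higher one. The share of the 39 genes with a lower effect was then near that of all genes, while the share with a higher effect was below it. The calls of Irf1, Igtp, Iigp1, Rtp4, Cmpk2 and Ifi27 were each lost without any 1 of several libraries, from 6 of 20 for Iigp1 to 15 of 20 for Igtp, with adjusted p values of 0.0501 to 0.0841. The count of lower effects was 7 without 10-week control replicate 3 or 4-week STAM replicate 3 and 8 without 10-week STAM replicate 5, and without 4-week control replicate 1 a second gene, Ifit2, had a higher effect. The libraries of 1 age are the only ones in their table, and the high-fat diet of STAM mice began at week 4. Age, time on that diet and table thus cannot be told apart.

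**Figure D4:**
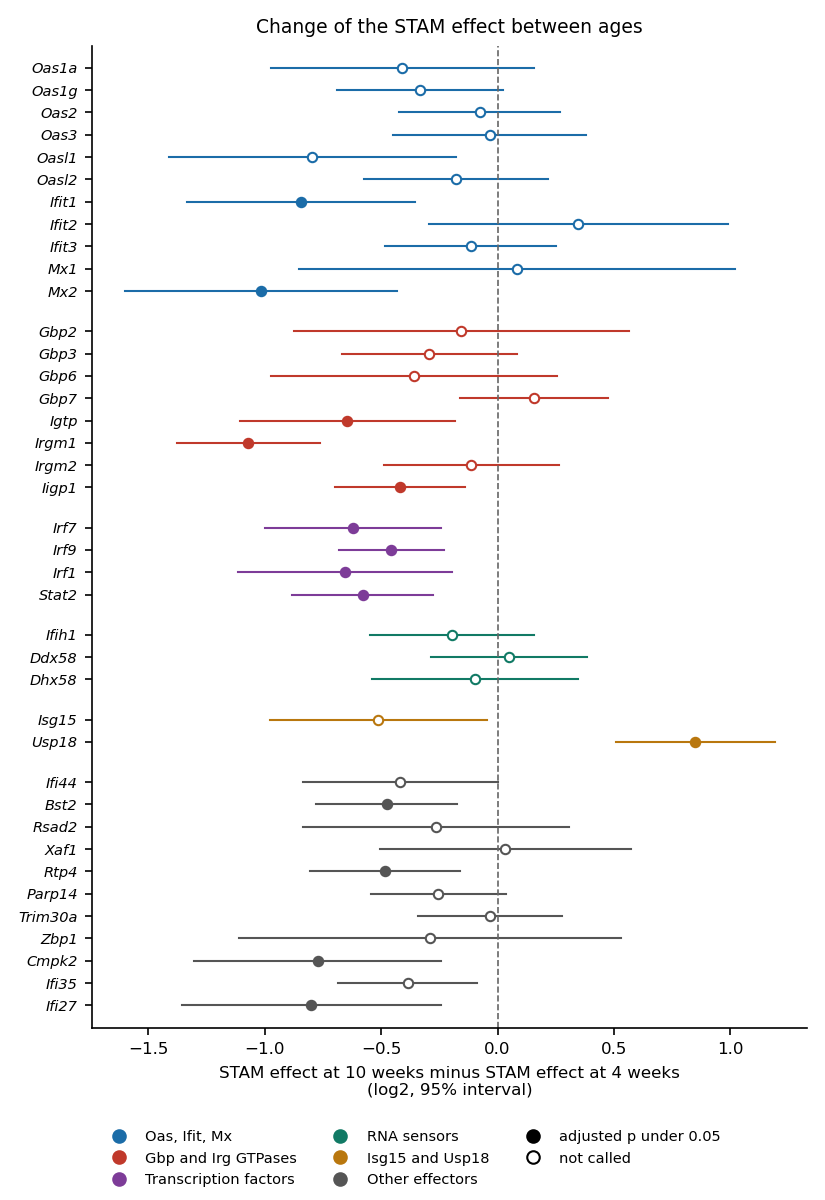
Points show how far the STAM effect at 10 weeks lay from that at 4 weeks (log2, 10 weeks minus 4 weeks) with 95% intervals from limma, for the 39 genes by role; filled points passed an adjusted p under 0.05. The 13 filled points left of 0 include all 4 transcription factors and Irgm1 at -1.07, and Usp18 at 0.85 is the only filled point right of 0.

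The MCD and STAM effects differed in nearly all genes. Set against STAM at 4 weeks, the MCD effect was lower in 38 of 39 genes and higher in none, with a median of -1.50, while 14.4% of all genes were lower and 11.7% higher. Set against STAM at 10 weeks, it was lower in 34 and higher in none, with a median of -1.23, while 15.0% of all genes were lower and 12.9% higher. At an unadjusted p under 0.05 the counts were 38 and 36 lower and 0 higher in both, and with voom 38 and 34 lower and 0 higher. Total-read scaling left 34 and 31 lower, where 6.72% and 10.7% of all genes were lower. That scaling ended the calls of Ifit2, Irgm2, Irf1 and Rsad2 against 4-week STAM (adjusted p 0.100 to 0.459). Against 10-week STAM it ended those of Mx2, Isg15 and Cmpk2 (adjusted p 0.0558 to 0.0613). The largest differences from 4-week STAM were in Ifi27 (-3.04, adjusted p = 1.47e-08), Ifi44 (-2.89, adjusted p = 7.22e-08) and Irf7 (-2.79, adjusted p = 9.25e-10). Gbp2 was the 1 gene not called against 4-week STAM (-0.43, adjusted p = 0.332). Against 10-week STAM, Oasl1, Gbp2, Iigp1, Irf1 and Rsad2 were not called, with values of -0.70, -0.27, -0.41, 0.10 and -0.51. The Mx2 difference from 10-week STAM was lost without any 1 of 11 libraries out of 18 (adjusted p 0.0515 to 0.0727) and the Irf1 difference from 4-week STAM without any 1 of 13 out of 18 (adjusted p 0.0553 to 0.111). The models differ in diet, age, chemical treatment and table at once, and these cannot be told apart.

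Levels are given here for each group beside the differences. The mean log2 CPM over the 39 genes was 4.71 ± 0.19 in MCD livers and 5.38 ± 0.06 in CD livers (SD, n = 4 each), 5.27 ± 0.05 in 4-week STAM livers and 4.31 ± 0.20 in their controls, and 4.69 ± 0.13 in 10-week STAM livers and 4.07 ± 0.17 in their controls (SD, n = 5 each). The tables were scaled separately, so these levels are given without a test. Per length, as CPM (here without the scaling factor) per kilobase counted, Iigp1 was the highest of the 39 in every group, from 172 to 226. Bst2 came second in every group, with 58.1 in MCD and 122 in CD livers, 222 in 4-week STAM livers and 120 in their controls, and 150 in 10-week STAM livers and 98.4 in their controls. Oas3 was the lowest in every group, from 0.414 to 1.51. The members lay partly in gene clusters, so neighbours are not independent. In mm10 coordinates, Oas1a, Oas1g, Oas2 and Oas3 span 120730333 to 120907525 on chromosome 5, the 3 Ifit genes 34550694 to 34650009 on chromosome 19, Mx1 and Mx2 97447037 to 97560899 on chromosome 16, Gbp2, Gbp3 and Gbp7 142530336 to 142638008 on chromosome 3, and Igtp and Irgm2 58199556 to 58222783 on chromosome 11.

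The interferon genes themselves were at the limit of detection. Of 12 ligand genes listed, Ifna1, Ifna2, Ifna4, Ifne, Ifnl2 and Ifnl3 had no read in any library, which allows up to 0.20 CPM in the shallowest. Ifnb1 had 1 read in all MCD livers together and 3 in CD livers, 1 in 4-week STAM livers and 0 in their controls, and 2 in 10-week STAM livers and 1 in their controls. Ifng had 5 reads in MCD and 3 in CD livers, 6 in 4-week STAM livers and 5 in their controls, and 5 in 10-week STAM livers and 1 in their controls. Ifnk had 8 reads in MCD livers, 1 in 4-week STAM livers, 4 in 10-week STAM livers and 0 in each control group. Il12b, a subunit of the cytokine that drives interferon gamma production, had 73 reads in MCD and 19 in CD livers, 34 in 4-week STAM livers and 12 in their controls, and 46 in 10-week STAM livers and 9 in their controls; only the last pair passed the test (log2 fold change 2.36, SE 0.69, adjusted p = 0.0122). Il12a had between 0 and 8 reads in a group. Il18, a second inducer of interferon gamma, fell in MCD livers (log2 fold change -0.67, SE 0.14, adjusted p = 0.00210) and in 10-week STAM livers (log2 fold change -0.46, SE 0.11, adjusted p = 0.00472), with -0.37, adjusted p = 0.0837 at 4 weeks. Neither Il18 fall was called under total-read scaling (-0.24, adjusted p = 0.125 and -0.17, adjusted p = 0.196), and the Il12b rise was not called after quantile normalization (1.43, adjusted p = 0.146).

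Of the 6 receptor chains, 4 rose in MCD livers, 1 fell and 1 was not called. Of all genes, 22.6% rose and 20.1% fell in MCD livers, 6.52% and 3.27% at 4 weeks, and 25.3% and 22.5% at 10 weeks. In MCD livers the gamma receptor chains Ifngr1 (log2 fold change 0.97, SE 0.11, adjusted p = 2.55e-05) and Ifngr2 (log2 fold change 0.70, SE 0.11, adjusted p = 0.000264) and the lambda receptor chains Ifnlr1 (log2 fold change 2.22, SE 0.35, adjusted p = 0.000264) and Il10rb (log2 fold change 0.75, SE 0.12, adjusted p = 0.000289) rose. Ifnar2 fell (log2 fold change -0.69, SE 0.11, adjusted p = 0.000328), and Ifnar1 was not called (-0.03, adjusted p = 0.802). In 4-week STAM livers none of the 9 receptors and kinases passed the limma test, with values from -0.19 for Ifnar2 to 1.43 for Ifnlr1. The receptor values were 1.43, adjusted p = 0.0613 for Ifnlr1, -0.16, adjusted p = 0.163 for Ifnar1, -0.19, adjusted p = 0.235 for Ifnar2, -0.07, adjusted p = 0.706 for Ifngr1, 0.41, adjusted p = 0.131 for Ifngr2 and 0.07, adjusted p = 0.749 for Il10rb. There, at an unadjusted p under 0.05 the counts were 2 higher and 1 lower, and with voom 0 higher and 0 lower. In 10-week STAM livers Ifngr1 (0.53, adjusted p = 0.000587), Ifngr2 (0.94, adjusted p = 2.19e-06), Ifnlr1 (3.90, adjusted p = 0.00245), Il10rb (0.64, adjusted p = 0.000225) and Ifnar1 (0.21, adjusted p = 0.0365) rose, and the value of Ifnar2 was -0.14, adjusted p = 0.0724. Ifnlr1 had 147 reads in all MCD livers together and 20 in all CD livers. It had 254 reads in all 10-week STAM livers and 20 in all 10-week controls, so its fold changes rest on few reads. Jak1 rose (0.42, adjusted p = 0.00588) and Tyk2 fell (-0.37, adjusted p = 0.0242) in MCD livers. Scaled by total reads, the MCD fall of Tyk2 (0.05, adjusted p = 0.751) was not called, Ifnar1 was called higher in MCD livers (0.40, adjusted p = 0.00212) and Ifnlr1 higher in STAM livers at 4 weeks (1.51, adjusted p = 0.0455). Under that scaling 49.6% of all genes were higher in MCD livers and 9.02% in 4-week STAM livers.

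Other interferon-stimulated genes, a list of 41 that shares no gene with the 39, moved in the same directions by count. Of 40 tested, 21 fell and 5 rose in MCD livers, 31 rose and none fell at 4 weeks, and 28 rose and 1 fell at 10 weeks, with medians of -0.45, 0.56 and 0.62. In 4-week STAM livers, at an unadjusted p under 0.05 the counts were 33 higher and 0 lower, and with voom 32 higher and 0 lower. Total-read scaling gave another split, in which 8 fell and 10 rose in MCD livers and their median was -0.03, where 7.98% of all genes fell and 49.6% rose. The 3 largest changes called were Ifi27l2b (log2 fold change 2.71, SE 0.25, adjusted p = 7.01e-06), Oas1b (log2 fold change -1.70, SE 0.19, adjusted p = 1.60e-05) and Cxcl10 (log2 fold change 1.51, SE 0.16, adjusted p = 1.46e-05) in MCD livers. At 4 weeks they were Ifi27l2b (log2 fold change 2.59, SE 0.44, adjusted p = 0.00692) and the chemokines Cxcl9 (log2 fold change 1.66, SE 0.26, adjusted p = 0.00361) and Cxcl10 (log2 fold change 1.66, SE 0.17, adjusted p = 7.27e-05), and at 10 weeks Ifi27l2b (log2 fold change 3.05, SE 0.31, adjusted p = 3.87e-05), Ciita, the regulator of class II antigen presentation (log2 fold change 1.77, SE 0.25, adjusted p = 0.000102), and Oas1c (log2 fold change 1.72, SE 0.29, adjusted p = 0.000366). Cxcl10 thus rose in MCD livers, where most of the 39 fell. Of 13 sensors and adaptors, 4 fell and 1 rose in MCD livers, 1 fell and 1 rose at 4 weeks, and 2 fell and 5 rose at 10 weeks. All genes fell in 20.1% and rose in 22.6% of cases in MCD livers, in 3.27% and 6.52% at 4 weeks and in 22.5% and 25.3% at 10 weeks, so with 13 genes these counts set the list little apart. Scaled by total reads, 1 of the 13 fell and 7 rose in MCD livers. Mavs, the adaptor of the RNA sensors, fell in all 3 comparisons (log2 fold change -1.30, SE 0.12, adjusted p = 3.25e-06 in MCD livers, log2 fold change -0.31, SE 0.08, adjusted p = 0.0350 at 4 weeks and log2 fold change -0.45, SE 0.08, adjusted p = 0.000332 at 10 weeks). Irf8 rose in MCD livers (log2 fold change 0.83, SE 0.19, adjusted p = 0.00320), and Tlr7, an endosomal receptor for RNA, rose in STAM livers at 4 weeks (log2 fold change 0.99, SE 0.18, adjusted p = 0.00463) and 10 weeks (log2 fold change 1.28, SE 0.16, adjusted p = 3.17e-05), as did Tlr9 at 10 weeks (log2 fold change 1.66, SE 0.31, adjusted p = 0.000664). Of 8 negative regulators, 3 fell and none rose in MCD livers, 2 fell and 2 rose at 4 weeks, and 1 fell and 5 rose at 10 weeks. In MCD livers, at an unadjusted p under 0.05 the counts were 0 higher and 3 lower, and with voom 0 higher and 3 lower. Rnf125, a ligase that degrades RNA sensors, fell in MCD livers (log2 fold change -0.61, SE 0.17, adjusted p = 0.0121) and rose in 10-week STAM livers (log2 fold change 0.92, SE 0.07, adjusted p = 1.01e-06), and Socs3 fell at 4 weeks (log2 fold change -0.71, SE 0.20, adjusted p = 0.0452). Scaled by total reads, the Mavs falls in STAM livers (-0.24, adjusted p = 0.107 at 4 weeks and -0.16, adjusted p = 0.0553 at 10 weeks), the MCD fall of Rnf125 (-0.19, adjusted p = 0.358) and the fall of Socs3 (-0.63, adjusted p = 0.0662) were not called.

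Markers of cell types moved with the same comparisons, and their part in the results was not tested. For the counts below, 22.6% of all genes rose and 20.1% fell in MCD livers. At 4 weeks 6.52% rose and 3.27% fell, and at 10 weeks 25.3% rose and 22.5% fell. Hepatocyte markers, which include Alb and Apoa1, summed to 74508 to 99504 CPM in MCD livers and 94800 to 116589 CPM in CD livers (7 of 9 fell), to 114372 to 128833 CPM in 4-week STAM livers and 140893 to 157708 CPM in their controls (2 of 9), and to 54108 to 68208 CPM in 10-week STAM livers and 88202 to 116931 CPM in their controls (6 of 9). Markers of recruited macrophages summed to 521 to 776 CPM in MCD livers and 233 to 348 CPM in CD livers (9 of 12 rose), to 357 to 464 CPM in 4-week STAM livers and 205 to 257 CPM in their controls (9 of 12), and to 366 to 696 CPM in 10-week STAM livers and 204 to 252 CPM in their controls (12 of 12). They were higher in all 3 comparisons, while most of the 39 genes were lower in MCD livers and higher in STAM livers. Any link between these was not tested. Of 7 Kupffer cell markers, 2 rose and 1 fell in MCD livers, 5 rose at 4 weeks, and 1 rose and 1 fell at 10 weeks. Their sums were 450 to 942 CPM in MCD livers and 673 to 1078 CPM in CD livers, with medians of 505 and 871 CPM. They were 541 to 689 CPM in 4-week STAM livers and 329 to 472 CPM in their controls, and 494 to 811 CPM in 10-week STAM livers and 487 to 798 CPM in their controls. The Kupffer sums thus had a lower median in MCD livers and were higher in 4-week STAM livers, while the ranges overlapped in MCD livers and at 10 weeks. In MCD livers the 7 markers did not share a direction, with a median log2 fold change of -0.02 and a range of -3.27 to 3.40. T and natural killer cell markers summed to at most 11.2 CPM in any library. Of 11 tested, 2 rose and 1 fell in MCD livers, none was called at 4 weeks, and 5 rose at 10 weeks. B cell markers summed to at most 10.1 CPM with none of 4 called. Neutrophil markers summed to at most 11.8 CPM. In MCD livers 2 of 5 neutrophil markers were higher, none was called at 4 weeks and 1 of 4 was higher at 10 weeks. Of 6 endothelial markers, 2 fell in MCD livers, 2 fell at 4 weeks, and 3 rose and 1 fell at 10 weeks. The 6 plasmacytoid dendritic cell markers summed to 45.5 to 144 CPM in MCD livers and 3.62 to 7.36 CPM in CD livers, to 33.2 to 55.6 CPM in 4-week STAM livers and 1.42 to 3.50 CPM in their controls, and to 42.9 to 108 CPM in 10-week STAM livers and 1.45 to 2.82 CPM in their controls. Ly6d held most of these reads, and without it the sums were 3.24 to 4.95 CPM in MCD livers and 1.99 to 3.50 CPM in CD livers, 1.42 to 2.30 CPM in 4-week STAM livers and 0.709 to 1.78 CPM in their controls, and 2.24 to 5.09 CPM in 10-week STAM livers and 1.17 to 2.15 CPM in their controls. Of the 6 markers, 2 rose in MCD livers, 1 at 4 weeks and 2 at 10 weeks. Among them Ly6d had the largest value in all 3 comparisons (5.17, adjusted p = 0.000301, 5.23, adjusted p = 1.35e-07 and 7.09, adjusted p = 1.03e-06), and Siglech was called at 10 weeks alone (1.80, adjusted p = 8.83e-05). Ly6g, a neutrophil marker, had no read in 10-week control livers, and no other marker in the lists was without reads in a whole group.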

How the data were processed

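Messenger RNA of 28 mouse livers was sequenced after poly(A) selection with a stranded paired-end Illumina kit, per the labels. Reads were aligned with STAR 2.4.2a to build mm10, per the submitters' processing notes; the counter, its strand setting and the authors' test are not given there. The deposited values are log2 CPM (counts relative to library size) with a small prior, scaled by the authors within each of 3 tables; the unit was read from the values, which gave whole reads for 100% of entries within 0.05 reads. The authors' deposited tables also hold adjusted p-values, used here for 1 count. Each comparison was fitted with limma 3.58.1 (trend and robust options, statmod 1.5.0, R 4.3.3) on the deposited log2 values of the 15312 genes whose mean lay above the 25th percentile, with Benjamini-Hochberg adjustment over all of them and calls at 0.05, two-sided. Differences between effects used 15022, 14986 and 14962 genes. The fits were tested on simulated data. Alternatives were no filter, total-read scaling, quantile normalization, a prior of 2 reads, voom on the recovered reads, the replicate number as a block, and each library left out in turn.

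The 39 genes and all lists were chosen with earlier results of these data known, so no pattern here is independent support. Values in every sample are given, in each comparison and role class, for the gene with the largest absolute log2 fold change (the 3 largest in classes of 8 or more) and for genes called in opposite directions in different comparisons. Pathway lists are given by counts, with values for ligands and receptors with reads and for the 3 largest changes called, and 1 gene that the rule names is not reported here; Jak1, Tyk2, Siglech and Ly6d were named after their values were seen. Of the promoter table, 11 of the 39 genes had no window and are not described there.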

Additional observations from a re-analysis of the deposited data

Results flagged for a closer look

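Of 234 combinations of gene and group, 9 held 1 library standing apart from the rest of its group by Dixon's criterion, where chance gives about 1 in 20. These were Mx2 in MCD replicate 1 (3.50 log2 CPM, against 2.78 to 2.85 in the other MCD livers), Rtp4 in MCD replicate 1 (5.03), Rsad2 in CD replicate 2 (6.24) and Xaf1 in CD replicate 3 (4.05). At 10 weeks they were Oas3 in STAM replicate 3 (2.17), Irf7 and Ifi44 in STAM replicate 5 (5.27 and 3.19), Xaf1 in STAM replicate 4 (3.88) and Oas1a in control replicate 3 (2.63).

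The STAM effect differed between 10 and 4 weeks in 14 genes by the test of the difference itself, given as log2 differences, 10 weeks minus 4 weeks. Usp18 was higher at 10 weeks by 0.85. The lower ones were Irgm1 at -1.07, Mx2 at -1.02, Ifit1 at -0.84, Ifi27 at -0.80, Cmpk2 at -0.77, Irf1 at -0.65, Igtp at -0.64, Irf7 at -0.62, Stat2 at -0.58, Bst2 at -0.48, Rtp4 at -0.48, Irf9 at -0.46 and Iigp1 at -0.42.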

How the results depend on the processing

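With total-read scaling 17 of the 39 genes fell in MCD livers (27 as deposited), 0 fell in 10-week STAM livers (4) and 2 had a lower STAM effect at 10 than at 4 weeks (13), while Iigp1, Irf9 and Ifi35 in 10-week STAM livers turned to 0.0078, 0.22 and 0.28. Quantile normalization left 1 gene higher in MCD livers (2). Leaving out 1 library gave 0 to 1 genes higher in MCD livers, 1 to 2 with a higher and 7 to 13 with a lower STAM effect at 10 weeks. The cause of these changes was not tested. The other counts over all 39 genes stayed within 1.5 times under the alternatives run. Counts by role class and for other gene lists moved more: with total-read scaling 2 Oas, Ifit and Mx genes fell in MCD livers (6), 0 immunity-related GTPases fell at 10 weeks (2), and 8 other interferon-stimulated genes fell and 10 rose in MCD livers (21 and 5).

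Same-numbered libraries correlated between -0.12 and 0.01 in their deviations from group means, so the replicate numbers do not pair the samples. With the replicate number as a block, 27 genes fell and 2 rose in MCD livers, 30 rose and 0 fell at 4 weeks, 28 rose and 3 fell at 10 weeks, 12 had a lower and 1 a higher STAM effect at 10 weeks, and the MCD effect was lower in 34 against 10-week and 36 against 4-week STAM and higher in 0 in both.

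Several ligand genes had no read in any library and were not tested.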
